A study of Mus musculus with 6 samples.

Results

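This account follows 10 genes of the AP-1 and immediate-early response in macrophages sorted from tumours (tumour-associated macrophages) of mice that received vehicle or PLX3397, an inhibitor of the receptor kinases CSF1R, KIT and FLT3. The genes are Fos, Fosb, Fosl2, Jun, Junb, Jund, Atf3, Egr1, Ier3 and Dusp1, chosen by name from 19938 genes that the arrays measured by a probe set with exactly 1 gene symbol. Each of the 10 had 1 such probe set. C57BL/6 mice carried hepa1-6 tumours, grown from a mouse hepatoma cell line implanted in the liver, and both groups shared this strain and tumour. The macrophages were sorted by flow cytometry, lysed within hours of sorting, and profiled on Affymetrix Mouse Gene 1.0 ST arrays, 3 for the vehicle group and 3 for the PLX3397 group. Dose, duration of treatment, the age and sex of the mice, the surface markers of the sort and any pooling of animals were not stated in the labels. Arrays of a group are labelled as biological replicates, but the labels do not tie each to its own animal, and the p-values therefore cover the spread between these arrays, which may be partly technical. The description fields carry a second name per sample, of macrophages given LPS and interferon-gamma for vehicle arrays and IL4 for PLX3397 arrays, which disagrees with the other labels and was not used.

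AP-1 is a transcription factor made of pairs of basic leucine zipper proteins, in which a Jun protein joins another Jun, a Fos protein or an ATF protein. Fos, Fosb, Jun, Junb, Egr1, Atf3, Ier3 and Dusp1 are immediate-early genes, transcribed within minutes of a stimulus without new protein synthesis. Many such genes, though not all, are driven through factors at the serum response element and the cyclic AMP response element (CRE) of their promoters. In macrophages CSF1, the ligand of CSF1R, and bacterial products are among the known inducers, and the transcripts also respond to the handling of cells.

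Values are deposited log2 values per probe set, shown for replicates 1, 2 and 3 in that order. A change is the log2 value with PLX3397 minus that with vehicle, given with the standard error (SE) of a limma fit over all genes, adjusted by the Benjamini-Hochberg method, with an adjusted p below 0.05 as the threshold. All 10 genes exceeded the background level, taken on each array as the 95th percentile of genes for olfactory and vomeronasal receptors (3.53 to 3.58), on all 6 arrays. Levels of different probe sets cannot be set against each other, so the genes are compared by their changes. Where levels are summed, matched or set against the background level, the values are rough descriptions only. With 3 arrays per group the smallest p of an exact permutation test is 0.1.

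The response did not move as a block. With PLX3397, Ier3, Fosl2, Atf3, Jun and Fosb were higher and Fos and Egr1 were lower, while Junb, Jund and Dusp1 did not pass the threshold. These 7 of 10 calls stand beside 37.8% of all genes called and 52.7% of the 12683 genes above background on all 6 arrays. The 5 called higher stand beside 19.6% of all genes and 26.4% of those above background, and the 2 called lower beside 18.3% and 26.3%. Nothing particular to the 10 genes is read from these shares. The calls of Fosb and Jun were near the threshold and were lost in several alternatives, whereas those of Ier3, Fosl2, Atf3, Fos and Egr1 held in all 17 alternatives run.

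**Figure D1:**
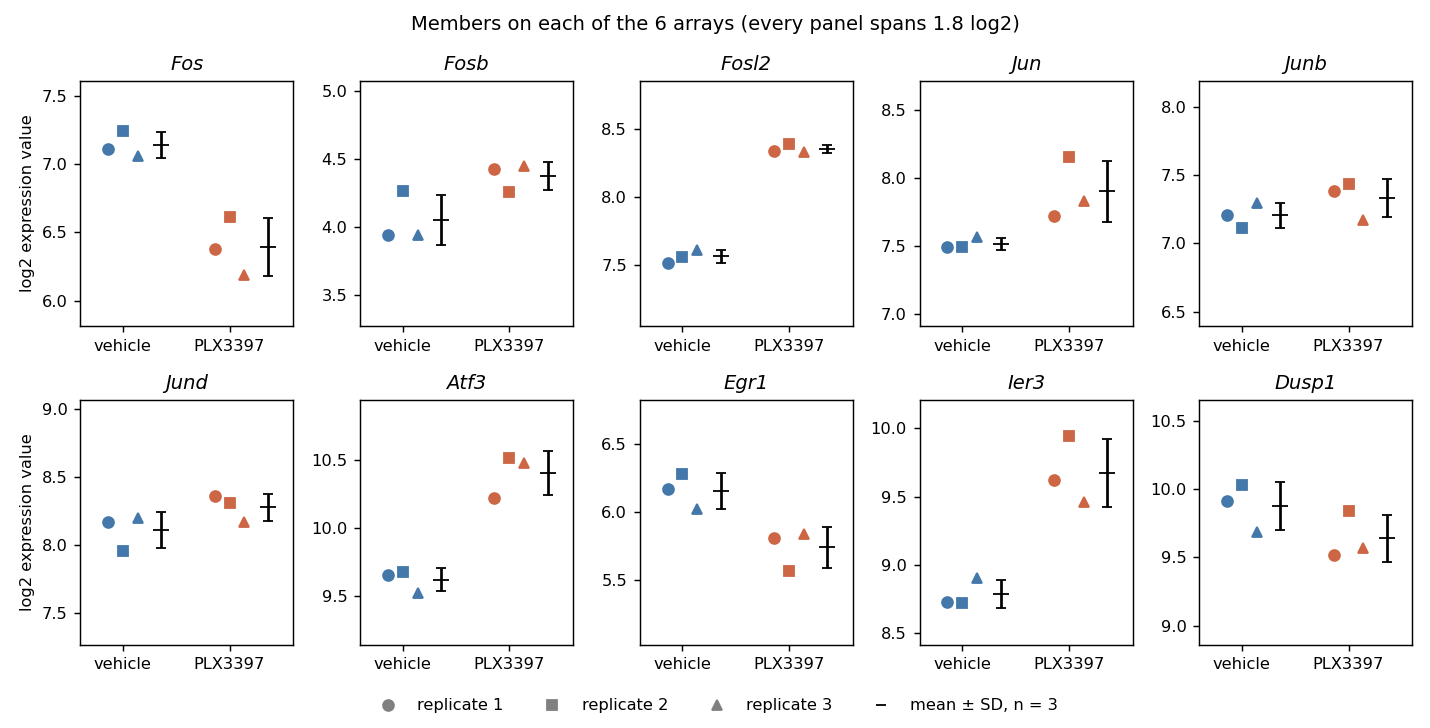
Deposited log2 value (vertical axis) of each of the 10 genes on the 3 vehicle arrays (blue) and the 3 PLX3397 arrays (orange), with marker shapes for replicate numbers and bars for the group mean ± SD. Fosl2, Atf3, Ier3 and Jun lie higher on all PLX3397 arrays, Fos and Egr1 lie lower on all of them, and the groups of Fosb, Junb, Jund and Dusp1 overlap.

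Short stretches of promoter are shown for the genes in which motifs of this response were found, since AP-1, ATF and EGR proteins are known to act at each other's promoters. They come from RefSeq, build GRCm38.p6, and each lies upstream of the start used for the window of its gene. For Fosb that start lies inside the annotated gene (chr7:19302696-19310118, minus strand), so its stretch is within the gene as annotated, and the other stretches lie outside their genes. A table entry was found for 9 of the 10 genes, all but Egr1, and windows of 300 bases, from 250 before to 50 after the start, were searched on both strands for 7 motifs. Capitals mark the matches: TGACG, the core of the CRE (in 20.8% of 32817 promoter windows), TGACGTCA, the full CRE (1.79%), TGACATCA, the variant site known from the Jun promoter (3.62%), GCGNGGGCG, the EGR site (5.56%), and TATAAA, the TATA box (13.6%). A full CRE holds this core on each strand.
Fos: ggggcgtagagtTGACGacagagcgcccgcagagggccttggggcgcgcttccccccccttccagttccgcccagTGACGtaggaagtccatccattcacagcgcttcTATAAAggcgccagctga
Fosb: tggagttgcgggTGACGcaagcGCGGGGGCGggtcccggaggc
Fosl2: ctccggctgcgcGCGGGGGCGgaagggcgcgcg
Jun: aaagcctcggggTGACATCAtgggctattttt
Junb: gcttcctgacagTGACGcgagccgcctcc
Atf3: ttaatagcattaCGTCAgc
Dusp1: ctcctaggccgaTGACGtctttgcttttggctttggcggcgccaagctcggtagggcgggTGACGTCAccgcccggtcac
The stretches are chr12:85473749-85473874 on the plus strand for Fos, chr7:19310075-19310117 on the minus strand for Fosb and chr5:32136381-32136413 on the plus strand for Fosl2. Those of the other 4 genes lie on the minus strand, at chr4:95052248-95052279 for Jun, chr8:84978838-84978866 for Junb, chr1:191183334-191183352 for Atf3 and chr17:26508596-26508675 for Dusp1.

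Matches stood upstream of genes of both directions. The CRE core was found upstream of Fos, which was lower with PLX3397, of Atf3 and, before its internal start, Fosb, which were higher, and of Junb and Dusp1, which did not pass. The full CRE was found in Dusp1 alone among the 9 genes, and the EGR site in Fosl2 and Fosb. No window of the 9 held TGANTCA, the AP-1 site itself (7.81% of windows), or a CArG box, the core of the serum response element (1.63%). Sequence farther than 250 bases upstream and the promoter of Egr1 were not searched. The absence therefore holds for these windows only, and such sites may lie outside them. Ier3 and Jund held none of the 7 motifs in this window. A match of letters is a description of the sequence and does not show that a factor was bound.

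The Fos family split. Fos encodes the classical partner of Jun in AP-1, and its probe set (10397346) read 7.12, 7.24 and 7.06 on the vehicle arrays and 6.38, 6.62 and 6.19 on the PLX3397 arrays. All PLX3397 arrays lay below all vehicle arrays. Fos fell by 0.75 (SE 0.11, limma adjusted p = 0.000424), from 7.14 ± 0.09 to 6.39 ± 0.21 (SD, n = 3), a 1.68-fold difference and the largest fall among the 10 genes. A larger absolute change was seen in 12.2% of all genes.

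Fosl2, which encodes Fra-2, a Fos protein that lacks the strong activation domain of Fos, moved the other way. Its probe set (10520862) read 7.51, 7.56 and 7.61 with vehicle and 8.33, 8.38 and 8.33 with PLX3397. The groups were separate and each was tight. Fosl2 rose by 0.79 (SE 0.08, adjusted p = 1.84e-05), 1.73-fold, the smallest adjusted p of the 10 genes.

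Fosb, a close relative of Fos, lay nearest the background level of the 10 (probe set 10560481), with 3.95, 4.26 and 3.94 in vehicle and 4.43, 4.26 and 4.45 with PLX3397. Vehicle replicate 2 and PLX3397 replicate 2 had nearly the same value, so the groups touched. Its rise of 0.33 (SE 0.11, 95% interval 0.09 to 0.57, adjusted p = 0.033) passed narrowly. It did not pass without vehicle replicate 1 (adjusted p = 0.114) or 3 (0.118), without PLX3397 replicate 1 (0.096) or 3 (0.080), with the replicate number as a block (0.060), with quantile normalisation (0.139) or with arrays centred on their medians (0.144).

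The contrast within the family can be read on each array as the log2 ratio of the 2 probe sets, whose change, unlike its level, has a meaning. The Fosl2 over Fos ratio was 0.40, 0.31 and 0.55 in vehicle and 1.96, 1.77 and 2.14 with PLX3397. It was 1.54 higher with PLX3397, with no overlap (two-sided exact permutation p = 0.1, the smallest possible; 0.2 adjusted over 4 pairs). The Fos over Fosb ratio fell by 1.08 (exact permutation p = 0.1, adjusted 0.2). With quantile normalisation and with single arrays left out, the first ratio changed by 1.44 to 1.63 and the second by -1.25 to -0.88. Centring an array cannot move a ratio within it, and each gene had 1 probe set, so those alternatives are no check here.

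In the Jun family Jun passed the threshold and Junb and Jund did not. Jun, the main DNA-binding partner of Fos (probe set 10514466), was at 7.49, 7.49 and 7.57 in vehicle and 7.72, 8.15 and 7.83 with PLX3397. The groups did not overlap, and PLX3397 replicate 2 was the highest array. Jun rose by 0.39 (SE 0.11, 95% interval 0.14 to 0.63, adjusted p = 0.019), from 7.52 ± 0.04 to 7.90 ± 0.22. The call was lost without vehicle replicate 1 (adjusted p = 0.058), without vehicle replicate 2 (0.062) and with centred arrays (0.078), and the change stayed positive in each of these.

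Junb, whose protein often opposes Jun at AP-1 sites (probe set 10580282), read 7.21, 7.11 and 7.30 in vehicle and 7.38, 7.44 and 7.18 with PLX3397. The groups overlapped, and the change was 0.13 (95% interval -0.09 to 0.34, adjusted p = 0.338). With quantile normalisation it was 0.24 and passed (adjusted p = 0.046).

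Jund, the Jun gene that many cells express without a stimulus (probe set 10572456), read 8.17, 7.96 and 8.20 in vehicle and 8.36, 8.31 and 8.17 with PLX3397. These groups overlapped too, with a change of 0.17 (95% interval -0.04 to 0.38, adjusted p = 0.203). The upper bounds of Junb and Jund, 0.34 and 0.38, lie close to the estimate for Jun, and a difference between Jun and its relatives was not shown. The Jun over Junb ratio was 0.26 higher with PLX3397 (exact permutation p = 0.2, adjusted 0.267) and the Jun over Jund ratio 0.22 higher (p = 0.3, adjusted 0.3), and both overlapped between groups. Genes within 0.5 log2 of the mean level of Jun, Junb and Jund had median changes of -0.13, -0.13 and -0.09.

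Atf3 encodes a stress-induced partner of Jun that restrains inflammatory genes in macrophages. Its probe set (10361091) read 9.66, 9.68 and 9.52 in vehicle and 10.22, 10.51 and 10.48 with PLX3397. All PLX3397 arrays were higher. Atf3 rose by 0.78 (SE 0.10, adjusted p = 0.000122), 1.72-fold, nearly as much as Fosl2.

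Egr1, a zinc finger factor induced by ERK signalling through the serum response factor, fell. Its probe set (10454782) read 6.17, 6.28 and 6.02 in vehicle and 5.81, 5.57 and 5.84 with PLX3397, with no overlap. The fall of 0.42 (SE 0.10, 95% interval -0.65 to -0.19, adjusted p = 0.009) corresponds to 1.33-fold.

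Ier3 encodes a small protein that modulates ERK and NF-kB signalling and cell survival, and it had the largest rise of the 10. Its probe set (10444890) read 8.73, 8.72 and 8.90 in vehicle and 9.62, 9.95 and 9.46 with PLX3397. The groups were separate. The rise was 0.89 (SE 0.12, adjusted p = 0.000236), 1.85-fold, and 9.22% of all genes changed more.

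Dusp1, a nuclear phosphatase that switches off p38 and JNK (probe set 10449284), read 9.91, 10.03 and 9.69 in vehicle and 9.52, 9.84 and 9.57 with PLX3397. The groups overlapped, with PLX3397 replicate 2 above vehicle replicate 3. The change was -0.24 (SE 0.12, 95% interval -0.49 to 0.02, adjusted p = 0.146). With arrays centred on their medians it was -0.35 and passed (adjusted p = 0.036).

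**Figure D2:**
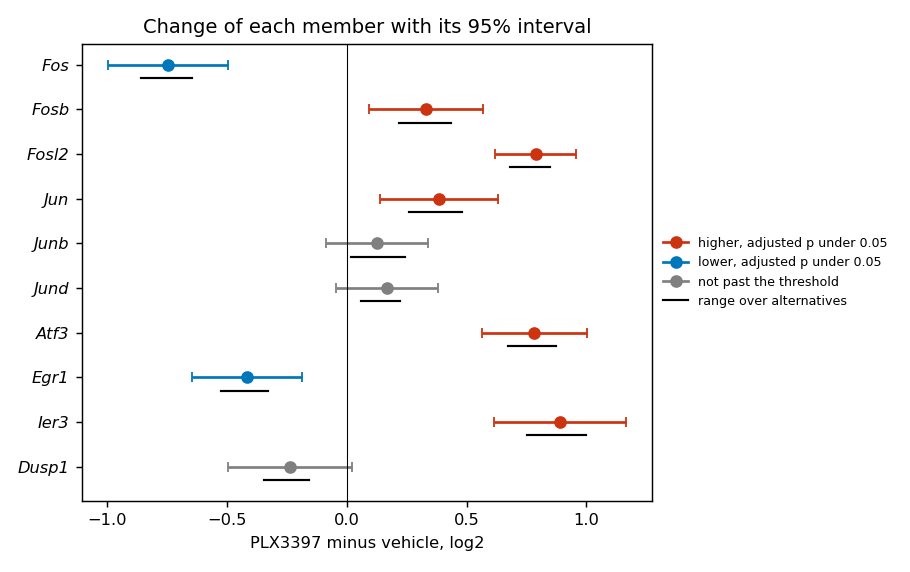
Change of each gene, PLX3397 minus vehicle in log2 (horizontal axis), with the 95% interval of the limma fit, coloured by whether it passed an adjusted p of 0.05, and below each a black line for the range of the estimate over 17 alternatives. Ier3 (0.89), Fosl2 (0.79) and Atf3 (0.78) lie farthest to the right and Fos (-0.75) farthest to the left, and no black line crosses 0. Of the alternatives only the normalisations, array weights and left-out arrays can move an estimate.

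Groups did not overlap for 6 of the 10 genes, beside 49.3% of all genes. They were 4 genes that were higher and 2 that were lower, beside 27.4% and 21.9%. The median change of the 10 genes was 0.25, against 0.04 over all genes. Of the calls over all genes 51.7% were higher as deposited and 34.2% with centred arrays, and the median change over all genes was 0.04 and -0.07 respectively. With it 3 of the 10 genes were called higher and 3 lower.

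PLX3397 replicate 2 was the highest array of its group for 7 of the 10 genes, the exceptions being Fosb and Egr1, for which it was the lowest, and Jund. Over all genes it was the highest of its group for 46.3%. Fos, Jun, Ier3 and Dusp1 stood 0.22, 0.25, 0.27 and 0.20 above their group means on it, against a median deviation of 0.03 over all genes. In vehicle, replicate 2 was the highest array for Fos, Fosb, Egr1, Dusp1 and Atf3 and replicate 3 for the other 5. Without PLX3397 replicate 2 the same 7 of the 10 genes were called.

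**Figure D3:**
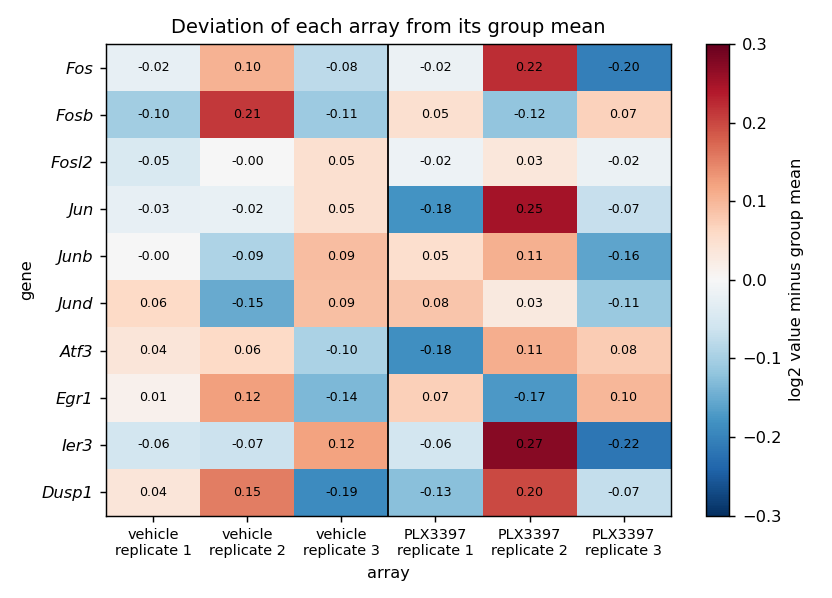
Deviation of each array (columns) from the mean of its own group for each gene (rows), as log2 value minus group mean, with the number printed in each cell and red for above the mean. On PLX3397 replicate 2 the values run from -0.17 for Egr1 to 0.27 for Ier3, and 8 of the 10 are above the group mean.

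By the root mean square difference over the 6 arrays, after each gene was centred on its own mean, the profiles most like that of Ier3 among 18613 other named genes were those of Irf8 (0.05 log2), Pcbp4 (0.05) and Oaz2 (0.06). Irf8, a lineage factor of macrophages and dendritic cells, was higher with PLX3397 by 0.85. The profiles most like that of Fos were those of Ythdc1 (0.03), a reader of methylated RNA, Mettl22 (0.04) and Mtmr2 (0.04), with changes of -0.76, -0.74 and -0.73. The centred profiles of these genes are mostly the change between groups, so close matches are genes with a change of about the same size. No link between the genes is read from them.

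The counts for the lists of other genes below stand beside 19.6% of all genes called higher and 18.3% called lower. Among genes above background on all 6 arrays these shares were 26.4% and 26.3%. No list was tested against them. The other basic leucine zipper genes that can pair with or compete with AP-1 proteins also went both ways. Of 18 measured genes 6 were higher and 7 lower (median change 0.04). With centred arrays 3 were higher and the median was -0.07. The number higher was also 3 without vehicle replicate 1, and the median was -0.10 with either filter on low values. The rises were led by Maff (0.97), a small Maf protein without an activation domain, Atf5 (0.88), a stress-induced ATF factor, and Batf3 (0.45), a Jun partner needed by a class of dendritic cells. The falls were led by Maf (-1.65), a macrophage differentiation factor, Batf (-1.17), a Jun partner in lymphocytes and myeloid cells, and Batf2 (-0.72). Fosl1, the remaining gene of the Fos family, encodes Fra-1 and was named after its values were seen. It read 6.19, 6.55 and 6.53 in vehicle and 6.60, 6.89 and 6.76 with PLX3397, with no overlap. Its change of 0.33 (SE 0.12, adjusted p = 0.048) lost the call in 9 of 17 alternatives, such as without vehicle replicate 1 (0.170) or PLX3397 replicate 2 (0.153).

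Other immediate-early genes were higher more often than lower, with 18 of 28 higher and 5 lower and a median change of 0.43. With centred arrays 14 were higher and 6 lower, and the median was 0.32. Egr2, a relative of Egr1 that takes part in macrophage differentiation and in the response to IL4, read 5.36, 5.75 and 5.49 in vehicle and 9.31, 9.15 and 9.17 with PLX3397. It rose by 3.67 (SE 0.11, adjusted p = 7.46e-09) where Egr1 fell by 0.42. Egr3, also named after its values were seen, was 0.26 higher (adjusted p = 0.039), a call lost in 10 of 17 alternatives, centred arrays among them (0.222). Rhob, a small GTPase, rose by 2.55 and the kinase gene Plk2 by 1.84. The falls were led by the matricellular gene Ccn1 (-2.44), the Kruppel-like factor gene Klf6 (-1.01) and Gadd45b (-0.90), which encodes a stress sensor upstream of p38.

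The MAPK phosphatases and Ras-ERK feedback genes, only some of which ERK activity is known to induce, were higher in 7 of 13 cases and lower in 2. Their median was 0.29, and 0.18 with centred arrays. The ERK phosphatase genes Dusp6, Dusp5 and Dusp4 rose by 2.45 (SE 0.13, adjusted p = 3.29e-07), 2.22 and 1.29. Dusp2, another nuclear phosphatase, fell by 1.46 and Spred1, an inhibitor of Ras signalling, by 0.64.

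The kinases upstream of AP-1 and the factors acting on serum response and CRE elements were lower in 10 of 21 measured cases and higher in 4 (median -0.22, and -0.33 with centred arrays). Over the alternatives the number lower ran from 6, at an adjusted p of 0.01, to 12, with centred arrays, and the number higher from 2 to 4. The falls were led by the ERK pathway kinase gene Braf (-1.47), Mapk8, which encodes the Jun kinase JNK1 (-1.08), and Mrtfb, a cofactor of the serum response factor (-0.68). Map2k3, which activates p38, rose by 1.35 and Map2k1, which encodes MEK1, by 0.50. Map2k6, another activator of p38, exceeded background on no vehicle array and on all 3 PLX3397 arrays, with a mean of 3.83 in the latter, at least 1.22-fold higher (adjusted p = 0.014). It did not pass without vehicle replicate 3 (0.060) or PLX3397 replicate 2 (0.051).

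Genes widely described as AP-1 targets were higher in 12 of 16 measured cases and lower in 2, with a median of 0.92. The median was 0.81 with centred arrays. The urokinase gene Plau rose by 3.67 (SE 0.11, adjusted p = 7.46e-09), the metalloproteinase genes Mmp10 and Mmp13 by 3.30 and 3.25, and Mmp3 and the hyaluronan receptor gene Cd44 fell by 0.76 and 0.62. The list was described by its name alone, and which factors drive these genes in these cells was not measured.

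**Figure D4:**
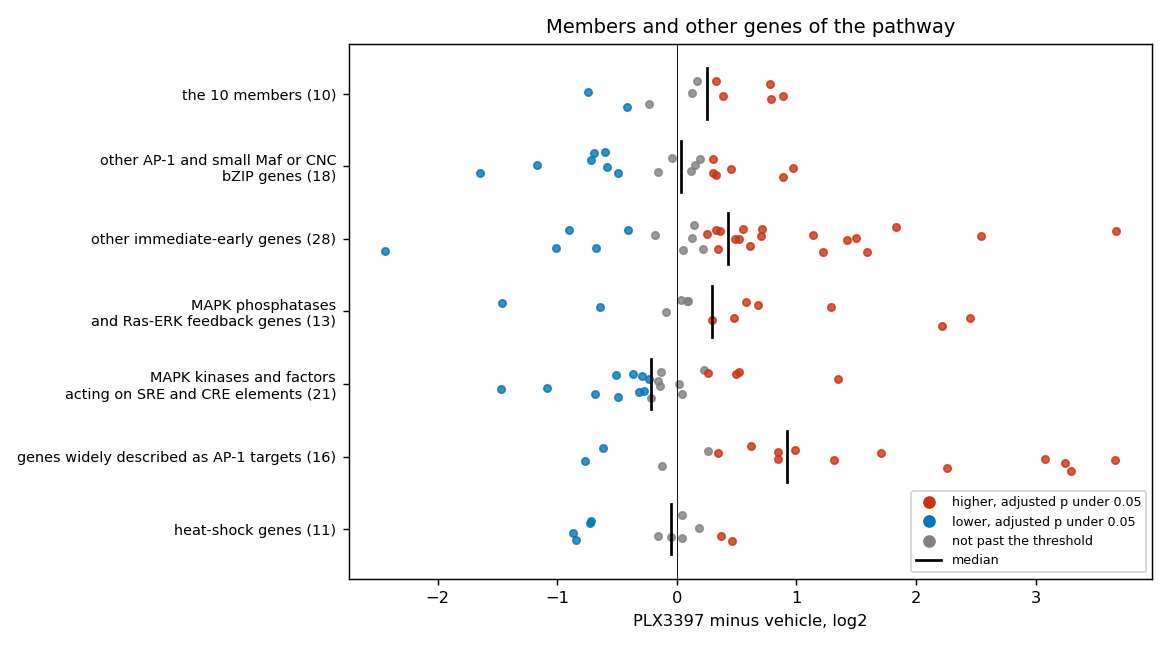
Change of each gene, PLX3397 minus vehicle in log2 (horizontal axis), for the 10 genes and 6 lists of other genes, with the number measured in brackets, 1 point per gene, red for higher and blue for lower at an adjusted p of 0.05, and a black bar for the median. The medians run from -0.22 for the MAPK kinases and factors list to 0.92 for the AP-1 target list, beside 0.25 for the 10 genes.

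Heat-shock genes, which like immediate-early genes respond to the handling of cells, went both ways. Of 11 measured 2 were higher, Hsph1 (0.47) and Bag3 (0.37), and 4 were lower, Hspd1 (-0.87), Dnaja1 (-0.85), Hspe1 (-0.73) and Hsp90aa1 (-0.72). The median was -0.05, and it was 0.02 with quantile normalisation, -0.16 with centred arrays and -0.14 without PLX3397 replicate 3. Hsp90aa1 was named after its values were seen. The part of cell handling in the changes of the 10 genes was not tested.

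The arrays carried the defining transcripts of macrophages. Csf1r, Adgre1, Itgam, Cd68 and Lyz2 were above background on all arrays, and the summed linear level of 8 macrophage markers was 20600 to 20930 in vehicle and 21240 to 22800 with PLX3397. Of the 8 markers 2 were higher, Itgam (0.97) and Cd14 (0.55). Lower were 3, Fcgr1 (-0.79), Adgre1 (-0.42) and Mertk (-0.37). The summed level of 7 endothelial markers was 168.5 to 178.2 in vehicle and 433.5 to 451.9 with PLX3397, with 5 higher and Tek not above background. That of 5 dendritic cell markers was 260.7 to 301.1 and 1782 to 2365, with 3 higher, led by Ccr7 (3.35), and Xcr1 not above background. Most of the dendritic cell sum came from Itgax, an integrin subunit that is also made by macrophages, whose log2 mean was 7.82 in vehicle and 10.86 with PLX3397. The summed level of 8 neutrophil markers was 232 to 246.8 and 406.6 to 730.7, with 2 higher, led by S100a8 (1.52), and Ly6g, Elane, Ngp and Cxcr2 not above background. Most of the neutrophil sum came from S100a8, whose log2 mean was 7.22 in vehicle and 8.74 with PLX3397. Of 6 hepatocyte markers 1 was higher, Trf (2.85), with sums of 381 to 418.4 and 2360 to 3004 and Alb, Ttr and Fgb not above background. Most of the hepatocyte sum came from Trf, whose log2 mean was 8.45 in vehicle and 11.30 with PLX3397, and the other measured markers were not called. Of the markers of other cell types, 3 of 4 for B cells were higher, of which Cd79b (0.62) was above background and Ms4a1 and Cd79a were not on any array. For T cells 1 of 6 was higher, Cd2, which was not above background on any array. Of the rest 0 of 5 were higher for NK cells, 4 of which were not above background. For mast cells and basophils 1 of 5 was higher, Kit (1.08), and the other 4 were not above background on any array. The sum of these 5 was 39.48 to 42 in vehicle and 53.07 to 56.73 with PLX3397. For fibroblasts 2 of 7 were lower, Col1a1 (-0.60) and Col1a2 (-0.43). The summed level was 51.93 to 55.81 in vehicle and 66.07 to 73.71 with PLX3397 for B cells, 70.27 to 76.36 and 72.34 to 78.11 for T cells, and 364.1 to 578.2 and 405.9 to 808.2 for fibroblasts. The brightest fibroblast marker was Dcn, with a log2 mean of 7.50 in vehicle and 8.45 with PLX3397. Its change of 0.95 was not called (limma adjusted p = 0.061). The part of such cells in the changes of the 10 genes was not tested. In bulk samples fewer cells of a type and less RNA per cell cannot be told apart.

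Correlations between arrays over genes, which are not independent replicates, were 0.9916 to 0.9966 within groups and 0.9512 to 0.9612 between groups, and no pair of arrays was identical.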

How the data were processed

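The authors deposited log2 values for 28941 probe sets on 6 Affymetrix Mouse Gene 1.0 ST arrays. The log base was taken from the values. The submitters' processing notes name MAS5 without a version or role, and details of summarisation, normalisation and filtering were not given in the sources used here. Values were used as deposited (array medians 4.21 to 4.25 in vehicle, 4.32 to 4.35 with PLX3397). Of the probe sets 21789 carry 1 gene symbol in the platform annotation, 1621 several and 5531 none here. The brightest probe set stood for each gene, which left 19938 genes for limma 3.58.1 (R 4.3.3; group as the only term, two-sided), with Benjamini-Hochberg adjustment over all of them. Within-array ratios were tested by exact permutation. The fit was tested on simulated data with independent noise and few changed genes. Many genes were called here, so that test does not cover these calls. The number of arrays limits the precision. The 10 genes, the other lists and the tests were chosen with earlier results of these data known. Named besides the 10 genes are the 3 largest rises and falls past the threshold per list, and the closest profiles; Fosl1, Egr3, Hsp90aa1 and some markers were named outside this rule after their values were seen. Of the 116 listed pathway genes 106 were measured. Batches could not be examined, since scan dates were not used here. The labels do not say whether replicate numbers pair the arrays, and the main fit did not pair them. Alternatives covered normalisation, filters, variance models, array weights, probe set rules, the threshold, leaving out single arrays and the replicate block. Plots were made in matplotlib 3.10.9.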

Additional observations from a re-analysis of the deposited data

How the results depend on the processing

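Of 10 genes 6 kept their direction and their side of the threshold in all 17 alternatives, namely Fos, Fosl2, Atf3, Egr1, Ier3 and Jund. The changes ranged from -0.86 to -0.64 for Fos, 0.68 to 0.85 for Fosl2, 0.67 to 0.87 for Atf3, -0.53 to -0.33 for Egr1 and 0.75 to 1.00 for Ier3. Only the normalisations, array weights and left-out arrays can move these changes, and the other alternatives bear on the calls alone. The number of genes called higher among the 10 was 5 as deposited, 3 with centred arrays, 3 at an adjusted p of 0.01, and 3 to 5 when single arrays were left out, lowest without vehicle replicate 1. The genes lost were Fosb and Jun, and the cause was not tested. With the replicate number as a block 6 of the 10 were called, without Fosb. Deviations of same-numbered arrays from their group means correlated at -0.0104, 0.0080 and -0.0133 over all genes. No general likeness of same-numbered arrays was seen, but a link that touched few genes would not show in this measure. The block gave 7154 calls over all genes, against 7539. The change of Csf1r, which was not called, turned from 0.09 to -0.019 with centred arrays. All 10 genes exceeded the background level on all 6 arrays.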
